A study of Mus musculus with 18 samples.

Results

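Retinas taken 30 days after an intravitreal injection of triamcinolone (TAA in the labels) were compared with retinas taken 30 days after injection of the vehicle (BSS). All mice were 2-month-old C57BL6/J males, wild type as far as the labels say, injected at day 0. With 3 biological replicates a group and 1 Affymetrix array for each, the comparison rests on 6 of the 18 arrays of the series and on 18194 genes. The other 12 arrays carry the vehicle and TAA at day 7 and dexamethasone (DEX) at days 7 and 30, and they are used where a difference is set against the earlier day or against the other steroid. The labels state no dose, no pooling and no scan date for these arrays, and the vehicle eyes were injected too, so no untouched eye enters the comparison.

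Triamcinolone is a synthetic glucocorticoid of low solubility, given into the vitreous against macular oedema and ocular inflammation. Glucocorticoids bind the glucocorticoid receptor, a nuclear receptor that moves to the nucleus, binds DNA as a dimer at palindromic response elements and raises genes such as Fkbp5, Tsc22d3, Zbtb16 and the metallothioneins, while it restrains inflammatory transcription factors. In the retina the receptor is found mainly in Müller glia, which span the tissue and hold its water and potassium balance.

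The values are relative. Each probe set is given as a log2 value centred on its own median over the 18 arrays, so 0 is the middle array of the series, 1 is a doubling over it, and no absolute level can be read. A difference below is the mean of the 3 TAA arrays minus the mean of the 3 vehicle arrays, with its standard error (SE) from limma. The SE pools the spread within all 6 groups of the series, so it is not the spread of the day 30 arrays alone. A gene was called where the Benjamini-Hochberg adjusted p over all genes was under 0.05. Whole retina was measured, so fewer cells of a type and less RNA per cell cannot be told apart.

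No gene was called at day 30. The smallest adjusted p of limma's test was 0.0551, and before adjustment 1318 genes (7.24%) were under 0.05, of which 669 (3.68%) were higher and 649 (3.57%) lower with TAA. A second, plainer measure was whether all 3 TAA arrays lay beyond all 3 vehicle arrays. This held for 5.86% of genes above the vehicle and 7.54% below it, or 13.4% in either direction, and these shares are the background for every count of gene group members given below. The median difference over all genes was -0.02 and 44.2% of genes were above the vehicle. Differences were mostly small: 186 genes (1.02%) were higher and 233 (1.28%) lower by more than 0.5 on the log2 scale, and 16 (0.0879%) were higher and 13 (0.0715%) lower by more than 1. The median SE was 0.14.

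Several arrays stood apart from their group. TAA replicate 2 had the widest spread over genes of the 6 arrays (SD 0.376, the others 0.176 to 0.251) and did not correlate with the other TAA arrays of day 30 (mean r across genes -0.0086). Its beta-actin probe sets at the 3 prime end were lower relative to those at the 5 prime end than on any other array of the series (a difference of -0.459, the other 17 arrays -0.167 to 0.137). The same measure for Gapdh did not set it apart (-0.0859, against -0.159 and -0.153 on TAA replicates 1 and 3). TAA replicate 3 carried the highest lens signal, and vehicle replicates 1 and 3 also carried lens signal. Vehicle replicate 2 was lowest for reactive glia and for microglia. The part of these features in the differences was not tested, and their values stand beside each group of genes they move with.

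**Figure D1:**
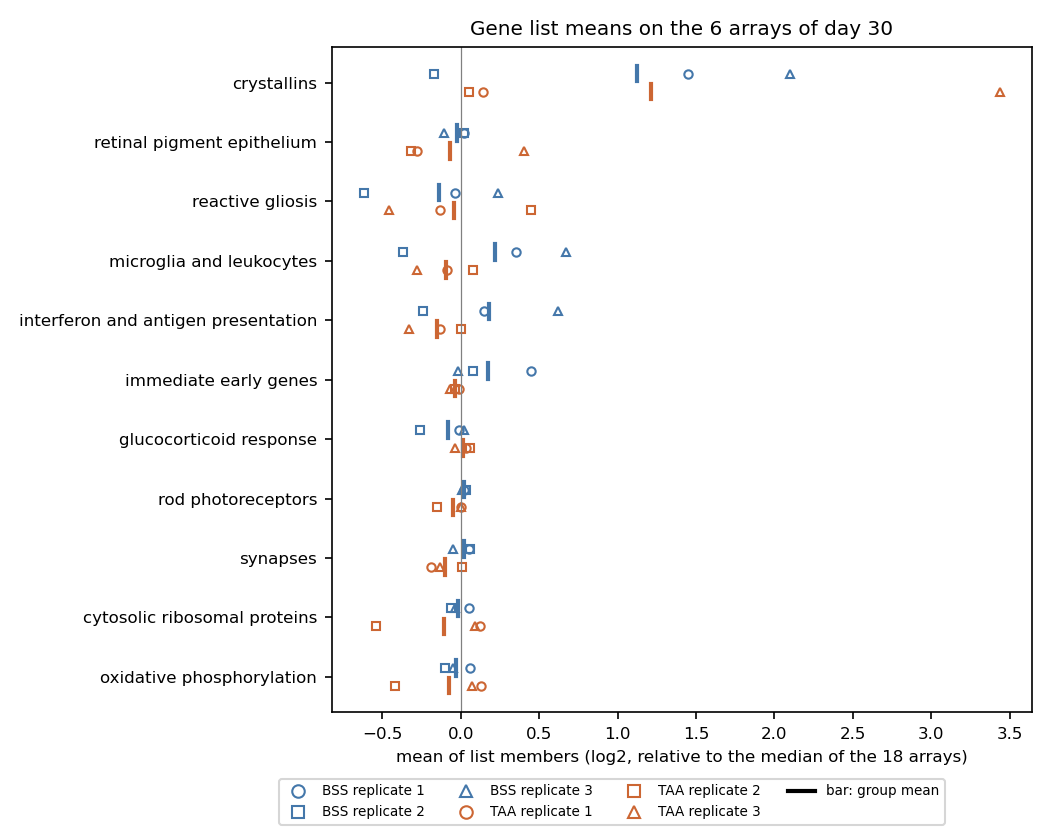
Mean value of the members of 11 gene lists on each of the 6 arrays of day 30 (x axis, log2 relative to the median of the 18 arrays), with blue for the vehicle, orange for TAA, 1 symbol per replicate and bars for group means. The groups overlap for most lists. The crystallins reach 3.44 on TAA replicate 3, and ribosomal proteins and oxidative phosphorylation are lowest on TAA replicate 2.

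Promoters from the glucocorticoid response list are shown first, because they say which of its genes carry a receptor-type palindrome close to the start. Windows of 250 bases before the annotated start (RefSeq, build GRCm38.p6) were searched on both strands for GNACA and TGTNC with 3 bases of any kind between them, a relaxed form of the glucocorticoid response element. Of the 32 glucocorticoid response genes followed below, 27 had a window and 5 held the motif (18.5%), against 0.44% of all genes with a window (119 of 27025). The list was drawn up with earlier results of these data known. It holds Folh1, the 1 gene called at day 7, so the share is a description. The 5 are printed 5′ to 3′ on the gene's strand with the motif in capitals.
Folh1, chr7:86775865-86776114, minus strand: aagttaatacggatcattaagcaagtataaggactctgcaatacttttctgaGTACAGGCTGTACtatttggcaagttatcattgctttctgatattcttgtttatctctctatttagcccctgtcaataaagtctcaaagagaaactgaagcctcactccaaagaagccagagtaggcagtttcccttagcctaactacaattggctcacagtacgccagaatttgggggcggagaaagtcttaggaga
Fam107a, chr14:8309780-8310029, minus strand: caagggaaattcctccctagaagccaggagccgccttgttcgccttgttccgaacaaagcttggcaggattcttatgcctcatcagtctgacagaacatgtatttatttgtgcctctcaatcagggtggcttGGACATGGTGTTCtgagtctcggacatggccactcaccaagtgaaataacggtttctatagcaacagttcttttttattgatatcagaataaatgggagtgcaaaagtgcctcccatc
Mt1, chr8:94178839-94179088, plus strand: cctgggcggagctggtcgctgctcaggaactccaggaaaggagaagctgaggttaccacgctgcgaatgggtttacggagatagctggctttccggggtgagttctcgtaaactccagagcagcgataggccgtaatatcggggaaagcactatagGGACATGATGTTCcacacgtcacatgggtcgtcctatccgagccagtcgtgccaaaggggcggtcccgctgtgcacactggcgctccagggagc
Sgk1, chr10:21993640-21993889, plus strand: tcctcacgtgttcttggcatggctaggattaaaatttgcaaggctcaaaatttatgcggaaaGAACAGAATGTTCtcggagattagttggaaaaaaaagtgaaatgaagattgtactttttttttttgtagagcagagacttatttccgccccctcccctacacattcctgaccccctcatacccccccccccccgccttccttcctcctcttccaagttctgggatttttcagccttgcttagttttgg
Map3k6, chr4:133240568-133240817, plus strand: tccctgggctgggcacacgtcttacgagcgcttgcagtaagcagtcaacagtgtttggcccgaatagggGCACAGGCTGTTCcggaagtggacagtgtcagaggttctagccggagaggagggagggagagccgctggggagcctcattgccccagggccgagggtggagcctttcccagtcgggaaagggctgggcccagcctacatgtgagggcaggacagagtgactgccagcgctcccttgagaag
The motif begins 198 bases before the start in Folh1, 118 in Fam107a, 94 in Mt1, 188 in Sgk1 and 181 in Map3k6. A match is a description of the letters and not a measured binding site.

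At day 30 these 5 genes differed from the vehicle by -0.12 to 0.53. Folh1 encodes glutamate carboxypeptidase II, which releases glutamate from a neuronal dipeptide. It read -0.16, -0.55 and 0.12 on vehicle replicates 1, 2 and 3 and 0.07, 0.86 and 0.08 on TAA replicates 1, 2 and 3. The TAA array at 0.07 lies below the vehicle array at 0.12, so the groups overlap, and the difference of 0.53 ± 0.26 (SE) did not pass (limma adjusted p = 0.691). At day 7 the same gene was 1.87 higher with TAA and passed (limma adjusted p = 0.0236), the 1 call of that comparison (0.0055% of genes). Fam107a, an actin-associated stress protein gene known as a steroid target, read -0.13, -0.21 and -0.49 with vehicle and 0.36, -0.16 and 0.35 with TAA. Replicate 2 of TAA lay inside the vehicle's range, and the difference was 0.46 at day 30 against 1.15 at day 7. Mt1, a metal-binding metallothionein, read 0.02, -0.55 and -0.07 with vehicle and 0.03, -0.83 and -0.17 with TAA, which is a difference of -0.12 ± 0.28 (SE, of the other sign after quantile normalization and with array weights), against 1.1 at day 7. Sgk1, a kinase that regulates ion channels, differed by 0.04 ± 0.11 (SE). Map3k6, a stress-activated kinase, was 0.15 higher, with its 3 TAA arrays (0.09 to 0.14) just above the vehicle arrays (-0.18 to 0.08).

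Across the 32 glucocorticoid response genes, 19 were above the vehicle and 13 below, with a median difference of 0.08 (all genes -0.02), or 0 without vehicle replicate 2. The TAA arrays lay wholly above the vehicle arrays for 3 members (9.38%, all genes 5.86%) and wholly below for 1 (3.12%, all genes 7.54%). The 3 were Map3k6, Cdkn1a (a cell cycle inhibitor, 0.44 ± 0.49 SE) and Arrdc2 (an arrestin-related trafficking adaptor, 0.32 ± 0.21 SE). Cdkn1a read 3.04 on TAA replicate 1 of day 7, and that spread enters its SE. The member below was Pdk4, a mitochondrial kinase that limits glucose oxidation (-0.27 ± 0.12 SE). Among the most widely used indicator genes, Fkbp5, the receptor's own co-chaperone, read 0.16, -0.18 and -0.07 with vehicle and -0.11, 0.46 and -0.19 with TAA. Only TAA replicate 2 was above the vehicle's range, and the difference was 0.08 ± 0.29 (SE), or of the other sign with array weights. Tsc22d3, the anti-inflammatory protein GILZ, read -0.01, -0.45 and -0.52 with vehicle and 0.01, 0.19 and -0.03 with TAA, and its difference of 0.38 ± 0.14 (SE) did not pass (limma adjusted p = 0.619). Of the 4 probe sets of Tsc22d3 (-0.09 to 0.38) 2 were above the vehicle, and of the 3 of Fkbp5 2 were. Zbtb16, a transcriptional repressor, was 0.17 higher (2 of 3 probe sets above the vehicle), Per1, a clock repressor, 0.1 lower (-0.1 ± 0.13 SE) and Mt2 0.12 higher. The receptor itself, Nr3c1, differed by 0.09 ± 0.14 (SE), and 2 of its 6 probe sets were above the vehicle.

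At day 7 the same 32 genes had a median difference of 0.29 with 27 above the vehicle. The contrast between the days was tested gene by gene as the TAA difference at day 30 minus that at day 7. No gene of the 18194 passed (smallest limma adjusted p = 0.473), and before adjustment 6.01% of genes were under 0.05. Of the 32 members, 8 had an unadjusted p under 0.05, all with the smaller value at day 30, and none with the larger. For Folh1 the difference between the days was -1.34 ± 0.37 (SE), for Mt1 -1.22, for Mt2 -1.42 and for Zbtb16 -0.66, each with a limma adjusted p of 0.711 or above. Sgk1 was close to 0 at both days (0.04 and -0.04). The list of 32 was drawn up with the day 7 result already known, so its larger values at day 7 are a description.

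**Figure D2:**
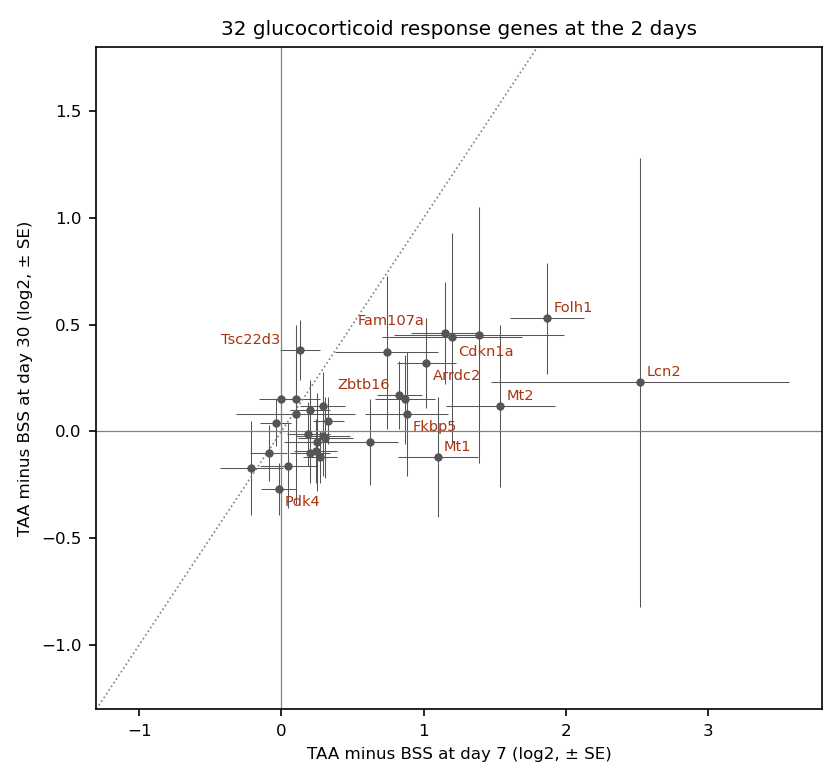
Each point is 1 of the 32 glucocorticoid response genes, with its TAA minus vehicle difference at day 7 on the x axis and at day 30 on the y axis (log2, bars are SE, the dotted line marks equal differences). Most points lie to the right of the vertical line and below the dotted line, and Folh1 is at 1.87 and 0.53.

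The genes named by size were taken from the 100 of smallest p, 10 with the highest and 10 with the lowest difference. None passed. All 20 had non-overlapping arrays, which the choice by p favours, so none could turn sign when 1 array was left out. None shrank to under 0.5 of its value, which the choice by p and size also favours. The value given for a gene is that of 1 probe set, the most variable over the series. Of the 14 with more than 1 probe set, 6 had all probe sets on the same side, and Cldn2, Taf15, Tradd, Mybl1, Gigyf2, Zfp800, Nedd4 and Sptbn1 had them on both.

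Among the higher genes, Cldn2, a channel-forming tight junction claudin, read -0.26, -0.43 and 0.12 with vehicle and 0.6, 1.69 and 0.6 with TAA. Every TAA array was above every vehicle array, with replicate 2 far above the others, and the difference was 1.15 ± 0.34 (SE, limma adjusted p = 0.618). Its other probe set did not lie on the same side. Penk, the precursor of the enkephalin opioid peptides, read -0.36, -1.17 and -0.45 with vehicle and 0.58, 0.68 and 0.14 with TAA. The nearest arrays of the 2 groups were 0.5 apart and the difference was 1.13 ± 0.3 (SE, limma adjusted p = 0.585). Taf15, an RNA-binding protein of the FET family, was 0.98 higher, again on 1 of 2 probe sets. Col4a1, a basement membrane collagen chain, read -0.18, -0.05 and 0.28 with vehicle and 0.33, 0.66 and 1.54 with TAA, a difference of 0.83 ± 0.23 (SE), with 0.85 on its other probe set. Its highest array was TAA replicate 3, which also had the highest lens signal, and without it the difference was 0.48.

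The zinc transporter gene Slc39a2 read -0.2, -0.01 and 0.01 with vehicle and 0.81, 0.91 and 0.47 with TAA (0.8 ± 0.16 SE, limma adjusted p = 0.322). Tradd, an adaptor of the tumour necrosis factor receptor, was 0.74 ± 0.14 (SE) higher with a limma adjusted p of 0.296, and Kyat1, an enzyme that makes kynurenic acid, was 0.68 higher with a limma adjusted p of 0.386, on 4 probe sets that ran from 0.02 to 0.68. The TAA arrays lay within 0.16 to 0.25 for Mybl1, a MYB family transcription factor gene, and the vehicle arrays within -0.88 to -0.31. Gigyf2, a translational repressor, and Jchain, the joining chain of polymeric immunoglobulins, were 0.68 and 0.7 higher. These genes belong to unlike families, and no theme was tested.

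Among the lower genes, Zfp800, a zinc finger protein gene, read 0.84, 1 and 0.03 with vehicle and -1.19, -1.61 and -0.74 with TAA. Its difference of -1.81 ± 0.42 (SE, limma adjusted p = 0.516) was the lowest of the 20, but 3 of its 7 probe sets were below the vehicle. Zfr, a zinc finger RNA-binding protein, read 0.15, 0.2 and 0.29 with vehicle and -0.51, -0.55 and -0.29 with TAA. All 6 of its probe sets were lower, by -0.04 to -0.67, with -0.67 ± 0.13 (SE, limma adjusted p = 0.296) on the one kept. Nedd4, a ubiquitin ligase, was lower by 0.92 (-0.92 ± 0.21 SE) and Sptbn1, a spectrin of the membrane skeleton, by as much (-0.92 ± 0.26 SE). Aplp1, an amyloid precursor-like neuronal protein, had a difference of -0.68, and its other probe set gave -0.65. Cited2, a transcriptional coregulator, differed by -0.67, with its other probe set at -0.18. Set, a histone chaperone, was at -0.65 on probe sets that reached from there to -0.13. Its lowest array, at -0.91, was TAA replicate 2, and without that array it was at -0.39. Pcp4l1, a small calmodulin-binding-like protein, was at -0.68.

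**Figure D3:**
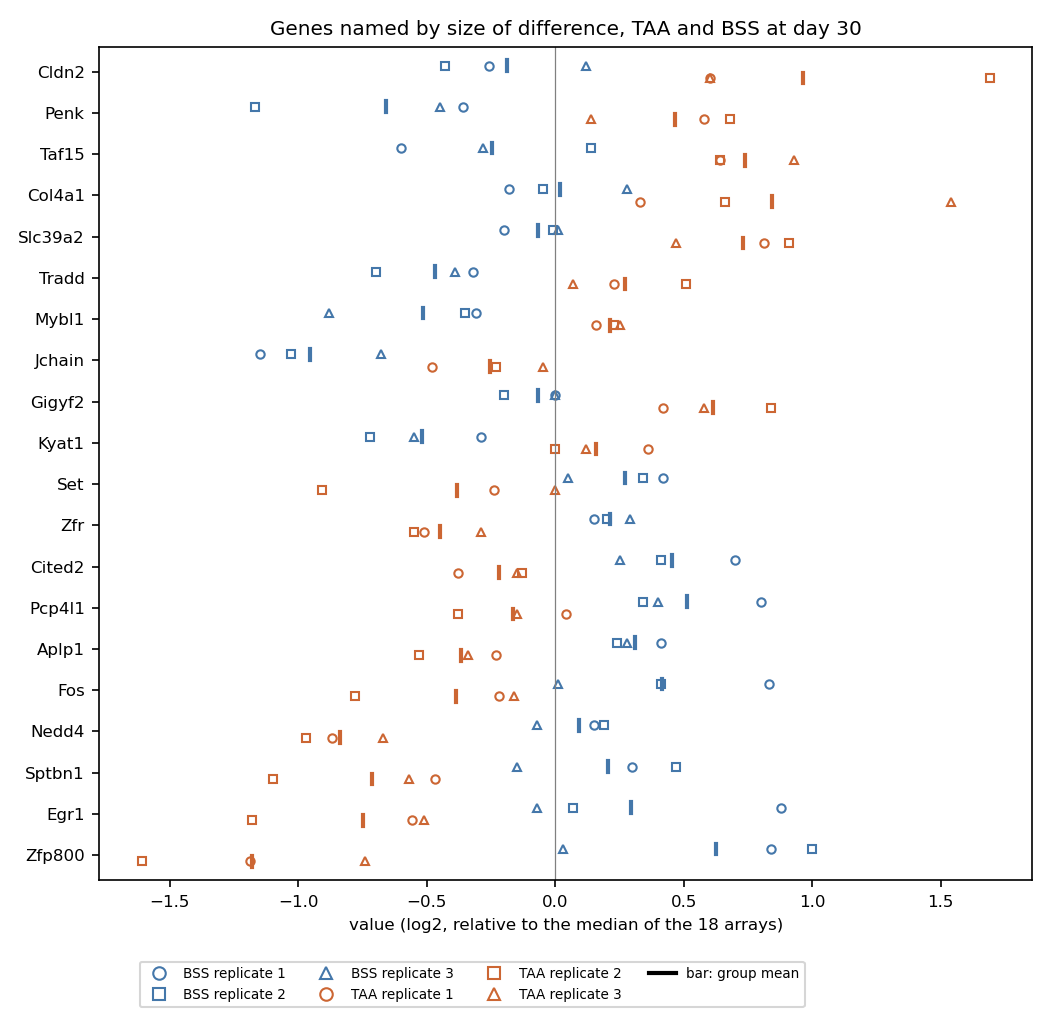
The 20 genes named by size, with the value on each of the 6 arrays on the x axis (log2 relative to the median of the 18 arrays), blue for the vehicle, orange for TAA, 1 symbol per replicate and bars for group means. No gene has overlapping groups. The 10 upper genes have the TAA arrays to the right, and the 10 lower genes, down to Zfp800, have them to the left.

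The remaining genes among the lowest were Egr1 and Fos, which belong to the immediate early genes, transcription factor genes and their partners that are switched on within minutes by neuronal activity, growth factors or handling of tissue. Of 18 members measured, 13 were below the vehicle and 5 above, with a median of -0.13. The TAA arrays lay wholly below the vehicle arrays for 6 members, or 33.3%, against 7.54% of all genes, and wholly above for none. Leaving out any 1 array left 6 to 8 members (33.3% to 44.4%) wholly below, against 11.7% to 17.2% of all genes. A member wholly below on all arrays stays so when 1 is left out, so this count could not fall under 6.

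Egr1, a zinc finger factor, read 0.88, 0.07 and -0.07 with vehicle and -0.56, -1.18 and -0.51 with TAA. The nearest arrays of the 2 groups were 0.44 apart and the difference was -1.04 ± 0.28 (SE, limma adjusted p = 0.585). Fos, a subunit of the AP-1 factor, read 0.83, 0.41 and 0.01 with vehicle and -0.22, -0.78 and -0.16 with TAA, a difference of -0.8 ± 0.22 (SE, limma adjusted p = 0.594). The nuclear receptor Nr4a3 read 1.07, 1.01 and 0.35 with vehicle and 0.03, 0.31 and 0.05 with TAA (-0.68 ± 0.22 SE, its 3 probe sets from -0.68 to -0.03). Its relative Nr4a1 read 0.42, 0.26 and 0.25 with vehicle and -0.22, -0.11 and -0.06 with TAA (-0.44 ± 0.17 SE). Jund, another AP-1 subunit, was lower by a similar size, and Arc, a synaptic capsid-like protein, was lower with arrays that touched at -0.03. Fosb went the other way on 1 array: it read 1.36 on TAA replicate 2 and -0.34 on replicate 3, and its difference of 0.49 shrank to 0.02 without replicate 2. The immediate early list was highest on vehicle replicate 1, with a mean of 0.45 against 0.08 and -0.02 on the other vehicle arrays and -0.07 to -0.01 on the TAA arrays. Without vehicle replicate 1 the median of the list was 0.03. The count of 6 members wholly below was unchanged, and leaving out an array could not lower it.

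**Figure D4:**
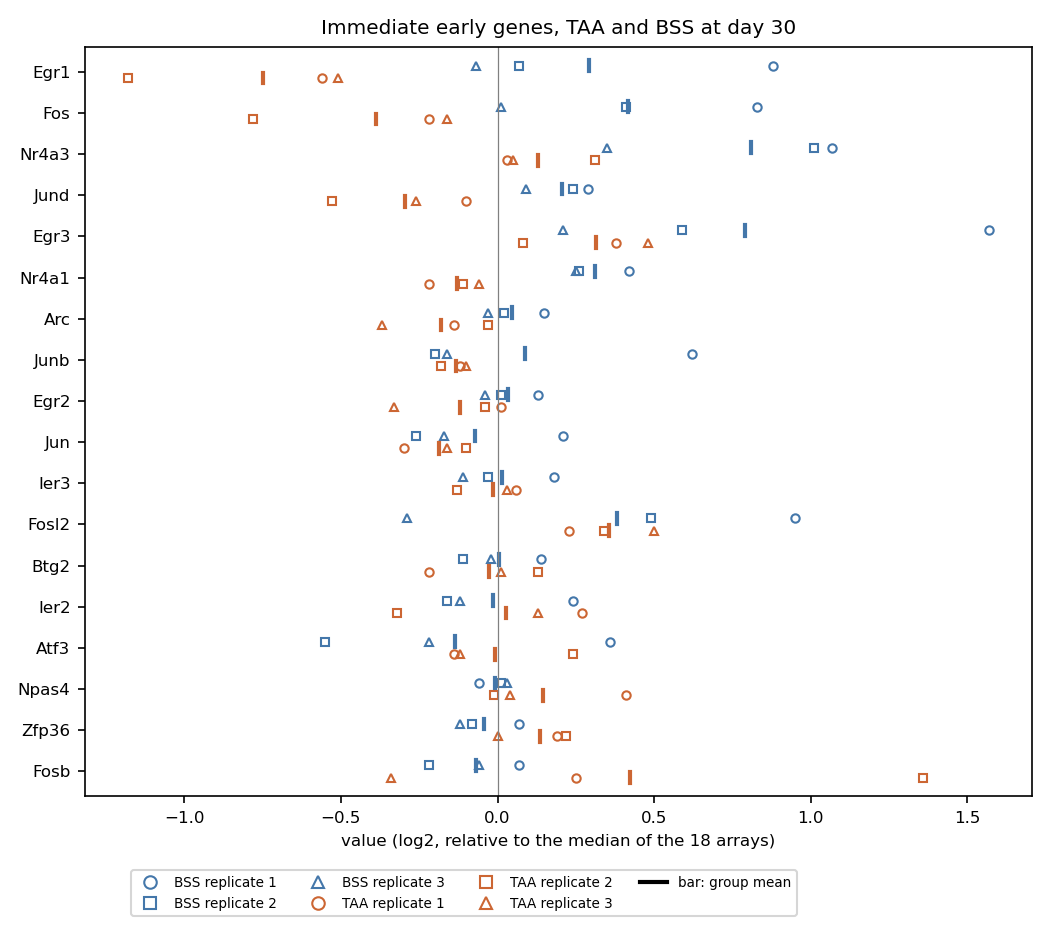
The 18 immediate early genes on the 6 arrays of day 30, ordered by difference (x axis, log2 relative to the median of the 18 arrays, blue for the vehicle, orange for TAA, 1 symbol per replicate, bars for group means). Egr1, Fos, Nr4a3, Jund, Nr4a1 and Arc have every TAA array below every vehicle array, and vehicle replicate 1 is the highest vehicle array for most genes.

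The promoters of 2 of these genes are shown because the TGACGT core of the cAMP response element, through which activity induces immediate early genes, lies close to their starts. It was found in the 250-base window of 6 of the 14 immediate early genes that had one (42.9%), against 7.29% of all genes. The 6 were Fos, Egr2, Nr4a3, Btg2, Atf3 and Npas4, of which only Fos and Nr4a3 had non-overlapping arrays. Letters matching TGACGT on either strand are in capitals.
Fos, chr12:85473640-85473889, plus strand: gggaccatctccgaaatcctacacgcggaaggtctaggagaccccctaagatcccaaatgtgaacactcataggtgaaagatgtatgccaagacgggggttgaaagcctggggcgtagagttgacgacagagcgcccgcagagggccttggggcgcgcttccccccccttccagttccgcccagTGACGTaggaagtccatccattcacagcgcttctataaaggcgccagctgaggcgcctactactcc
Nr4a3, chr4:48045055-48045304, plus strand: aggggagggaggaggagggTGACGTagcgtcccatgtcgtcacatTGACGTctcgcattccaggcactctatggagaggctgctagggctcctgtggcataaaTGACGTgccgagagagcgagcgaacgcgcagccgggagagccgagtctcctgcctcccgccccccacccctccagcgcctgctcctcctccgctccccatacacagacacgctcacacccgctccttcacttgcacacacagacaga

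The DEX arrays of day 30 share the vehicle arrays with this comparison, so the values are given side by side only. DEX minus vehicle was -0.65 for Egr1, -0.52 for Fos, -0.55 for Nr4a3 and -0.33 for Nr4a1. Set directly against DEX, TAA differed by -0.39, -0.29, -0.13 and -0.11 for the same 4 genes. None of the 18 members had TAA arrays wholly beyond the DEX arrays in either direction, against 14.8% of all genes.

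Among glia, the reactive gliosis list, which gathers the genes that Müller cells and astrocytes raise after injury, was split evenly, with 10 of 20 members above the vehicle, a median of 0.03 (of the other sign with array weights) and none with non-overlapping arrays. Gfap, the intermediate filament of reactive glia, read 0.43, -0.19 and -0.01 with vehicle and -0.9, 0.13 and -0.99 with TAA. Replicates 1 and 3 of TAA were low and replicate 2 was not, and the difference of -0.66 ± 0.4 (SE) did not pass (limma adjusted p = 0.772). Serpina3n, a secreted protease inhibitor of reactive astrocytes, ran from -1.86 to 1.18 with vehicle and from -1.76 to 0.77 with TAA. Edn2, an endothelin released by stressed photoreceptors, ran from -1.98 to -0.33 with vehicle and from -1.69 to 2.25 with TAA, and Cd44, a hyaluronan receptor, was 0.76 ± 0.38 (SE) higher. The list's mean on single arrays, from -0.62 on vehicle replicate 2 to 0.45 on TAA replicate 2, varied more within each group than between them. At day 7 the list's median was 0.91 with 17 of 20 above the vehicle. Its mean on the TAA arrays of that day was 0.5, 1.74 and -0.06 against -0.11, -0.49 and -0.17 with vehicle, so replicate 2 was far the highest and replicate 3 was close to the vehicle. In the contrast of the days 6 of 20 members had an unadjusted p under 0.05 for a smaller difference at day 30. Of all 18194 genes 516 did, and 6.01% were under 0.05 in either direction. Gfap differed by -1.86 between the days (limma adjusted p = 0.711) and Serpina3n by -3.43 (limma adjusted p = 0.711).

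Genes of resting Müller glia were close to the vehicle, with 9 above and 12 below of 21 and a median of -0.05. The water channel Aqp4 read 0.05, 0.04 and 0.06 with vehicle and 0.08, -0.3 and 0.04 with TAA, so TAA replicates 1 and 3 matched the vehicle and only replicate 2 was lower. The potassium channel Kcnj10 differed by -0.05 ± 0.18 (SE), or of the other sign after quantile normalization and with array weights. Aqp4 was at -0.11 ± 0.27 (SE), or at 0.01 without TAA replicate 2 and 0.05 by the median of its probe sets. The only member that lay wholly apart was Abca8a, a lipid transporter, at -0.18 (4.76% wholly below, all genes 7.54%). Of 12 water and ion transport genes 3 were above and 9 below (median -0.05). The sodium pump subunit Atp1b1 read 0.01, -0.04 and -0.09 with vehicle and -0.33, -0.48 and -0.16 with TAA, lower on 5 of 5 probe sets (-0.28 ± 0.22 SE), and the chloride cotransporter Slc12a2 was at -0.5 ± 0.25 (SE) with overlapping arrays.

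Immune genes were mostly below the vehicle, but the vehicle arrays disagreed among themselves. Of 25 microglia and leukocyte genes 22 were below, with a median of -0.29, and none had non-overlapping arrays. The list's mean was 0.35, -0.37 and 0.67 on vehicle replicates 1, 2 and 3 and -0.09, 0.08 and -0.28 on the TAA arrays, so vehicle replicate 2 lay below all 3 TAA arrays. Without vehicle replicate 2, 19 of 25 members (76%, all genes 12.6%) had both remaining vehicle arrays above every TAA array. Without vehicle replicate 3, none did, and the median was -0.14. H2-Aa, an MHC class II chain of antigen-presenting cells, read 1.74, -0.4 and 2.93 with vehicle and -0.3, 0.03 and 0.01 with TAA. Vehicle replicates 1 and 3 were high, and the difference was -1.51 ± 0.55 (SE, limma adjusted p = 0.619), the lowest of 4 probe sets that reached -0.24, and -0.76 without vehicle replicate 3. Tmem119, a marker of resident microglia, read 0.31, 0.05 and 0.29 with vehicle and -0.15, 0.16 and -0.23 with TAA (-0.29 ± 0.13 SE).

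Interferon and antigen presentation genes followed the same arrays. Of 24 members 22 were below the vehicle with a median of -0.22, and 4 (16.7%, all genes 7.54%) lay wholly below. They were Irf7, the interferon-induced regulator of the interferon response (-0.5 ± 0.16 SE), Ifit1, an antiviral RNA-binding protein (-1.13 ± 0.53 SE), Iigp1, an immunity-related GTPase (-0.64 ± 0.3 SE), and Mx1, an antiviral GTPase (-0.21 ± 0.12 SE). Irf7 read 0.48, 0.22 and 0.64 with vehicle and 0.05, 0.01 and -0.22 with TAA. The list's mean was 0.62 on vehicle replicate 3 and -0.24 on vehicle replicate 2. The median was -0.06 without vehicle replicate 3 and -0.42 without vehicle replicate 2. In the latter case 13 of 24 members (54.2%, all genes 12.6%) lay wholly below. Without any other 1 array 4 to 6 did (16.7% to 25%, all genes 11.7% to 17.2%), and this count could not fall under 4. At day 7 the list's median was 0.13 with 22 of 24 above the vehicle, but its mean was -0.38, 1.1 and -0.07 on the TAA arrays against 0.04, -0.15 and 0.29 on the vehicle arrays, so only TAA replicate 2 of that day was above the vehicle's range.

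Complement genes had a median of -0.09 with 5 of 17 above. Wholly above was 1 (5.88%, all genes 5.86%) and wholly below 1 (5.88%, all genes 7.54%). Cfb, a convertase component of the alternative pathway, was lower without overlap (-0.42 ± 0.15 SE) and Cd59a, an inhibitor of the membrane attack complex, was higher without overlap (0.21 ± 0.11 SE). C1qb, made by microglia, read 0.86, -1.73 and 0.8 with vehicle and -0.2, -0.79 and -0.58 with TAA, which repeats the low value of vehicle replicate 2. Of 28 inflammatory mediators 12 were above and 16 below (median -0.03). The chemokine gene Ccl4 (-0.31 ± 0.15 SE) was the member wholly below (3.57%, all genes 7.54%). Ccl12 was lower with overlap (-0.68 ± 0.26 SE), and the neutrophil and glial lipocalin Lcn2 ran from -2.09 to 2.68 over the vehicle arrays alone.

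Rod genes stayed near the vehicle, while several cone genes lay below it. Of 26 rod genes 9 were above and 17 below, with a median of -0.09. Wholly apart were 3, 1 above (3.85%, all genes 5.86%) and 2 below (7.69%, all genes 7.54%). Rdh12, a retinol dehydrogenase, was higher at 0.31, 0.32 and 0.16 with TAA against 0.05, -0.11 and 0.08 with vehicle. Reep6, a membrane trafficking protein of rods, was lower at -0.14, -0.76 and -0.17 against 0.07, -0.02 and -0.08, with its largest step on TAA replicate 2, and the exchanger gene Slc24a1 was lower by less (-0.18 ± 0.11 SE). The median of the rod list was -0.01 without TAA replicate 2. Of 15 cone genes 7 were above and 8 below, with 4 wholly below (26.7%, all genes 7.54%) and none wholly above. Their median was -0.13, or 0.01 without TAA replicate 2. Opn1sw, the short-wave cone opsin, read 0.41, 0.23 and 0.13 with vehicle and -0.06, -0.29 and -0.13 with TAA, a difference of -0.42 ± 0.31 (SE) on 1 of 2 probe sets. Thrb, the thyroid receptor that specifies the other cone opsin, read 0.25, 0.17 and 0.19 with vehicle and -0.51, 0.1 and -0.42 with TAA (-0.48 ± 0.16 SE). The cone transducin subunit Gngt2 was at -0.29 ± 0.12 (SE) and the potassium channel subunit Kcne2 at -0.42 ± 0.16 (SE), and both were at -0.18 without TAA replicate 2. Arr3, cone arrestin, went the other way (0.36 ± 0.26 SE, with overlap), so the cone genes did not share a direction.

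Second-order neurons showed single lower genes on an even list. Of 23 bipolar cell genes 10 were above and 13 below (median -0.01, or of the other sign after quantile normalization of the arrays), and 3 lay wholly below (13%, all genes 7.54%). Scgn, a calcium sensor of cone bipolar cells, read 0.48, 0.39 and 0.65 with vehicle and -0.05, -0.49 and 0.16 with TAA, and its difference of -0.64 ± 0.14 (SE) had a limma adjusted p of 0.516. Cabp5, a calcium-binding protein of bipolar cells, read 0.17, 0.17 and 0.11 with vehicle and -0.38, -0.4 and -0.12 with TAA, -0.45 ± 0.15 (SE), while its other probe set gave -0.1. The third was Gnao1, the G protein of ON bipolar cells, at -0.26, or of the other sign by the median of its probe sets. Of 21 amacrine and horizontal cell genes 8 were above, and 3 lay wholly below (14.3%, all genes 7.54%). They were Calb2 (calretinin, -0.25), Chat (choline acetyltransferase of starburst amacrine cells, -0.21) and Nfia (a transcription factor of AII amacrine cells and glia, -0.38).

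Retinal ganglion cell genes were evenly split, 12 above and 12 below of 24 (median -0.01). Penk was wholly above (4.17%, all genes 5.86%) and 3 cytoskeletal genes were wholly below (12.5%, all genes 7.54%). Nefl, the light neurofilament, read 0.29, 0.16 and -0.03 with vehicle and -0.46, -0.87 and -0.19 with TAA, a difference of -0.65 ± 0.18 (SE, limma adjusted p = 0.585), while its other probe set gave -0.23. Nefm, the medium neurofilament, differed by -0.38 ± 0.18 (SE) and Stmn2, a microtubule regulator of axons, by -0.54 ± 0.27 (SE). TAA replicate 2 was the lowest array for all 3 genes. Without it Nefl was at -0.47, Stmn2 at -0.3 and Nefm at -0.24, and the other probe set of Stmn2 was above the vehicle at 0.24.

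Synaptic genes leaned below the vehicle: 22 of 28 were lower, with a median of -0.07 that stayed between -0.19 and -0.06 without any 1 array. Wholly below were 6 members (21.4%, all genes 7.54%), and none was wholly above. Gria2, a glutamate receptor subunit, read 0.14, 0.55 and 0.3 with vehicle and -0.2, 0.02 and -0.06 with TAA (-0.4 ± 0.17 SE, 2 of 3 probe sets below). Grin2a, an NMDA receptor subunit, was at -0.31 ± 0.15 (SE), Camk2a, a postsynaptic kinase, at -0.32 ± 0.18 (SE, 3 of 6 probe sets below the vehicle) and Syn1, a vesicle phosphoprotein, at -0.27 ± 0.15 (SE), while Syn2 and Vamp2 made up the 6. On TAA replicate 2 the pattern differed: Snap25, a fusion protein, read -1.41 there and -0.12 and -0.06 on the other TAA arrays, and the list's mean was 0.01 on that array against -0.19 and -0.13. Without it 13 of 28 members (46.4%, all genes 17.2%) lay wholly below. Without any other 1 array 6 to 8 did (21.4% to 28.6%, all genes 11.7% to 12.8%), and this count could not fall under 6.

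Signal from neighbouring tissue varied between arrays of 1 group. The 14 crystallins, structural proteins of the lens, had means of 1.45, -0.17 and 2.1 on the vehicle arrays and 0.14, 0.05 and 3.44 on the TAA arrays. Cryaa read 2.4, -0.38 and 2.67 with vehicle and 0.28, 0.59 and 5.7 with TAA. The list's median difference was 0.27 with all arrays, -1.16 without TAA replicate 3 and 1.14 without TAA replicate 2, and it was of the other sign after quantile normalization, so it had no direction. The γ-crystallins Crygb and Crygd did not follow the other crystallins on TAA replicate 3. Crygd read 1.16, 0.05 and 3.32 with vehicle and -0.09, -0.27 and -0.04 with TAA, while TAA replicate 3 had the highest Cryaa of the series. The same array was highest for other lens fibre genes (1.95, with Gja3 at 4.72), for pigment epithelium genes (0.4, the other TAA arrays -0.28 and -0.32) and for Aldh3a1, a corneal and lens enzyme (4.28, the other 5 arrays -0.09 to 0.38). Of 19 pigment epithelium genes 10 were above and 9 below (median 0.04, of the other sign by the median of probe sets), and Ttr, a thyroxine and retinol carrier of that layer, ran from -1.6 to 0.54 over the TAA arrays. Of 21 cornea, iris and ciliary body genes 8 were above and 13 below (median -0.04). Of 13 heat shock genes 5 were above and 8 below. Among them Cryab was high on the arrays with lens signal and Hspb1 was at -0.72 ± 0.27 (SE).

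Extracellular matrix genes lay on both sides of the vehicle. Of 29 members 22 were below the vehicle (median -0.11, between -0.13 and -0.11 without any 1 array), with 3 wholly above (10.3%, all genes 5.86%) and 5 wholly below (17.2%, all genes 7.54%). The 3 above were basement membrane or elastic fibre components. Fbln1, a fibulin, read -0.59, -1.19 and -0.87 with vehicle and 0.51, 0.93 and 0.25 with TAA, a gap of 0.84 between the nearest arrays and a difference of 1.45 ± 0.44 (SE, limma adjusted p = 0.618) on 2 of 3 probe sets. Col18a1, the precursor of endostatin, read -0.34, -0.58 and -0.42 with vehicle and 0.6, 0.02 and 0.37 with TAA (0.78 ± 0.29 SE), and Col4a1 is described above. The lowest of the other 5 was Lox, which crosslinks collagen, at 0.17, 0.07 and 0.02 with vehicle and -0.42, -0.22 and -0.31 with TAA (-0.4 ± 0.13 SE). The other members wholly below were Fn1, Sparcl1, Lum and Mmp14. The basement membrane gene Nid1 read 4.11 on TAA replicate 3 and at most 0.27 elsewhere among the 6 arrays.

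Vascular genes lay close to the vehicle. Of 22 endothelial and barrier genes 13 were above and 9 below (median 0.03), with 3 wholly below (13.6%, all genes 7.54%). They were Kdr, the main VEGF receptor (-0.23 ± 0.18 SE), Emcn, an endothelial mucin (-0.14 ± 0.1 SE), and Slco1a4, a barrier transporter (-0.18 ± 0.11 SE). Flt1, the decoy VEGF receptor, was higher by 0.39 ± 0.19 (SE) with overlap, by 0.19 without TAA replicate 2, and by 0.04 to 0.39 over its 4 probe sets. Vegfa, the main driver of vessel growth and leak, read -0.08, 0.19 and 0.12 with vehicle and -0.09, 0.61 and 0.2 with TAA, a difference of 0.16 ± 0.15 (SE) that was -0.02 without replicate 2. Angpt1, which stabilises vessels, read 0.13, 0.01 and 0.18 with vehicle and -0.27, -0.09 and -0.37 with TAA (-0.35 ± 0.17 SE), and Vegfb was lower with overlap (-0.52 ± 0.17 SE). Of 24 angiogenesis genes in all, 16 were below the vehicle (median -0.09). Of 15 pericyte and smooth muscle genes 11 were below (median -0.03), with Rgs5 at -0.48.

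Among metabolic and housekeeping lists, cholesterol synthesis had 12 of 16 genes above the vehicle, a median of 0.12 that stayed between 0.09 and 0.14 without any 1 array, and 2 genes wholly above (12.5%, all genes 5.86%). They were Fdps, farnesyl diphosphate synthase, at 0.13, 0.17 and 0.14 with TAA against 0, -0.27 and -0.13 with vehicle, and Hmgcs1, an early step of the pathway, 0.23 ± 0.12 (SE). Both genes were of the other sign when all probe sets of a gene were combined by their median. The member wholly below (6.25%, all genes 7.54%) was Sqle, squalene epoxidase (-0.13 ± 0.1 SE). Of 18 cell cycle genes 14 were above (median 0.06) and 3 wholly above (16.7%, all genes 5.86%): Mcm7, a replicative helicase subunit, 0.57 ± 0.16 (SE, probe sets 0.15 to 0.57), its relative Mcm4 and the proliferation marker Mki67, the last 2 by under 0.2.

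Ribosomal protein and respiratory chain genes followed TAA replicate 2. Of 44 ribosomal protein genes 34 were below the vehicle (median -0.11), yet the list's mean was 0.12, -0.54 and 0.09 on the TAA arrays, and without replicate 2 the median was 0.13. Of 51 oxidative phosphorylation genes 33 were below (median -0.05), with means of 0.13, -0.42 and 0.07, and a median of 0.11 without replicate 2. Both medians were also of the other sign after quantile normalization and with array weights. Of the ribosomal members 3 lay wholly above (6.82%, all genes 5.86%) and 3 wholly below (6.82%, all genes 7.54%). Rpl12 was among those above, at 0.24, 0.46 and 0.32 against -0.14, -0.02 and -0.1. Rpl4 was among those below, with -0.93 on replicate 2. In the respiratory chain 2 members lay wholly above (3.92%, all genes 5.86%) and 2 wholly below (3.92%, all genes 7.54%). Atp5c1, a subunit of ATP synthase, was higher at 0.33, 0.65 and 0.48 against -0.5, 0.33 and -0.06, while its other probe set gave -0.2. Cox7c, a subunit of cytochrome oxidase, was higher at 0.05, 1.5 and 0.59. The 2 below were Atp5pb (-0.41 ± 0.23 SE) and Cox8a (-0.26 ± 0.13 SE), subunits of the same 2 enzymes.

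The remaining lists had medians near 0, and those of the clock, erythrocyte, neurotrophic and pericyte genes were of the other sign under quantile normalization or array weights. Of 21 clock genes 12 were above (median 0.01), and Rorb, a nuclear receptor of rod and amacrine development, was lower at -0.33, -0.45 and -0.31 against 0.18, 0.15 and 0.02 on probe sets from -0.48 to -0.44 (-0.48 ± 0.16 SE, limma adjusted p = 0.618). Of 20 cell death genes 9 were above and 11 below (median 0), with Casp8, an initiator caspase, lower at -0.02, 0.01 and -0.01 against 0.33, 0.25 and 0.33 (-0.31 ± 0.15 SE). Gadd45a, a DNA damage gene, read 1.79 on TAA replicate 2 and between -0.33 and 0.08 on the other 5 arrays. Of 15 steroid receptor and chaperone genes 5 were above and none lay wholly apart, with Hspa8 highest (0.35) and Hsp90aa1 lowest (-0.18). Of 12 neurotrophic factor genes 5 were above, and Bdnf was at -0.22. Of 7 erythrocyte genes 2 were above the vehicle, with Alas2 at 0.23. Over the lists and the genes chosen by size, 93 of the 165 named genes lay wholly apart. Of these, 23 shrank by more than 1.5 times without 1 array, and 28 of the 49 with several probe sets had them on both sides of the vehicle, among them Angpt1, Atp5c1, Fdps, Lox, Mcm4, Nfia and Rdh12.

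**Figure D5:**
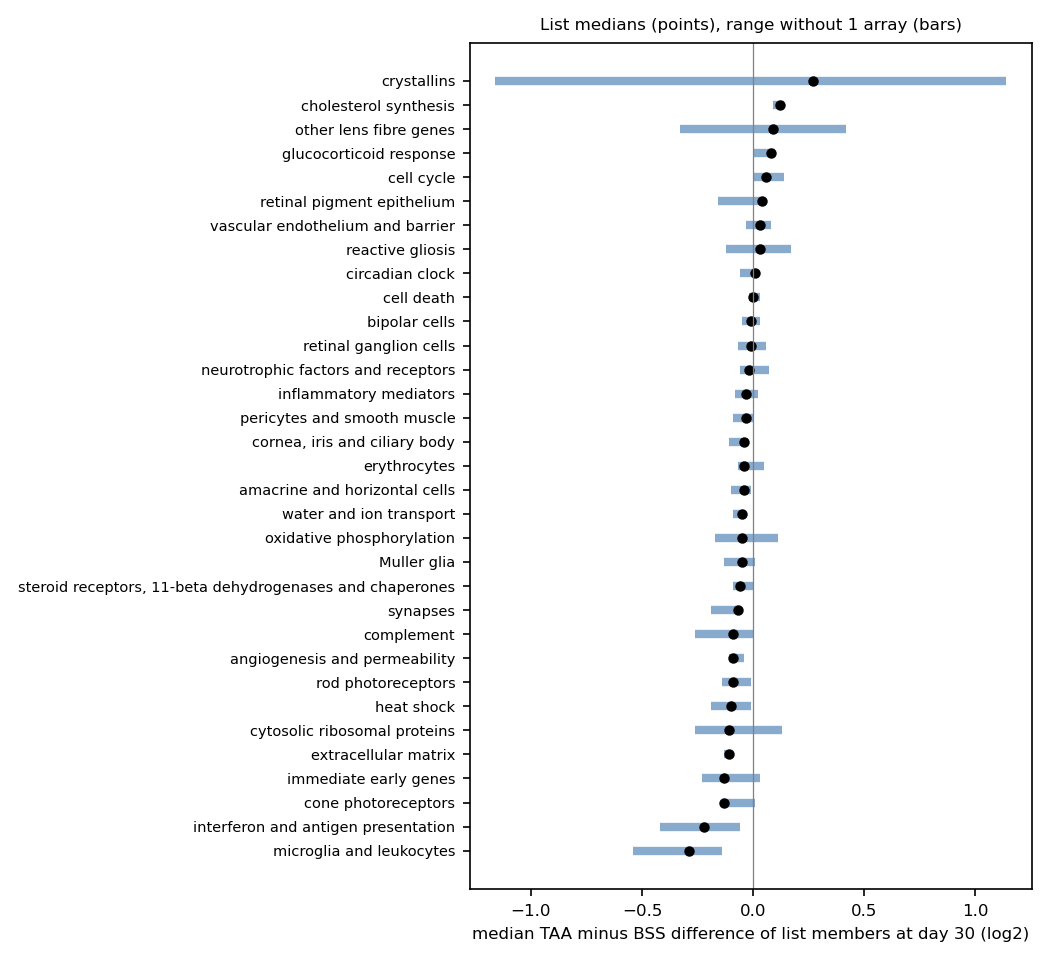
Median TAA minus vehicle difference of the members of each of the 33 gene lists at day 30 (points, x axis in log2), with bars from the lowest to the highest median when 1 of the 6 arrays was left out. The bar of the crystallins runs from -1.16 to 1.14, those of ribosomal proteins and oxidative phosphorylation cross 0, and those of cholesterol synthesis and the extracellular matrix are narrow.

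Across all genes, the TAA difference at day 30 was close to uncorrelated with that at day 7: Pearson's r was -0.0462 and Spearman's rho -0.0411 across 18194 genes, which share arrays and are not independent replicates. Of the 100 genes of smallest p at day 30, 38 had the same sign at day 7. The highest differences between the days among the 100 smallest p of that test were Fbln1 (2.04), Cldn2 (1.76), Col18a1 (1.4), Penk (1.39) and Kcnj13, a potassium channel of the pigment epithelium (1.34), with limma adjusted p from 0.571 to 0.711. The lowest were Zfp800 (-2.29), Saa3, an acute phase protein (-2.06), Gfap (-1.86), Ndnf, a neurotrophic secreted protein (-1.72), and Egr1 (-1.49), each with a limma adjusted p of 0.711. For 4 of these 10 the TAA minus vehicle difference was larger in size at day 7 than at day 30: Kcnj13 (-1 against 0.34), Saa3 (2.02 against -0.04), Gfap (1.2 against -0.66) and Ndnf (0.88 against -0.83). Vehicle replicate 1 of day 7 was high for Fbln1 (1.19), Cldn2 (1.21), Col18a1 (1.09) and Penk (0.82). The other vehicle arrays of that day lay between -1.21 and 0.02 for these genes. That array had a mean correlation of -0.189 with its group, the lowest of the series.

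Against DEX at the same day, which sets 2 glucocorticoids side by side 30 days after injection, no gene passed (smallest limma adjusted p = 0.0633), while before adjustment 3019 genes (16.6%) were under 0.05, 9.07% higher and 7.52% lower with TAA. The highest named were Col4a1 (1.07), Tubg2, a γ-tubulin (1.02), Taf15 (0.99), Vax2os (0.93) and Folr1, a folate receptor (0.92). The lowest were Ywhaz, a 14-3-3 protein (-1.88), Ccdc173 (-1.87), Zc3h15 (-1.45), Prrc2c (-1.44) and Vmn1r58 (-1.39). Folr1 was also higher than the vehicle, at 0.25, 0.14 and 0.68 against -0.16, -0.62 and -0.12. DEX replicate 3 had a negative mean correlation with the other DEX arrays of that day (-0.0801), and without it 1253 genes passed, 493 higher and 760 lower with TAA. Of the 32 glucocorticoid response genes 21 were above DEX, and of 22 endothelial and barrier genes 7 lay wholly above it (31.8%, all genes 8.97%). The labels give no dose for either steroid, so the 2 are not matched in dose here.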

How the data were processed

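RNA of whole retina was measured on 18 Affymetrix mouse arrays, 3 in each of 6 groups of treatment and day, from biotinylated cRNA made by a two-cycle procedure, per the labels' protocols. Per the submitters' processing notes the authors used RMA, whose version is not given in the sources used here. The deposited table is read as log2, RMA's convention, and so is the sign (higher for more RNA), since the numbers themselves show neither. For every probe set the median of the 18 arrays lay within 5e-07 of 0, so the values (-4.5 to 5.71) are centred, hold no level and allow no filter on level. Precision depends on the number of arrays.

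Of 45101 probe sets, 34958 named 1 gene in the platform annotation, 932 several, 64 were controls and 9147 are unnamed here. For 9012 genes with several probe sets the one of highest interquartile range over the 18 arrays was kept, which left 18194 genes. limma 3.58.1 in R 4.3.3 was fitted to all 18 arrays with a coefficient for each group (residual df 12, prior df 5.21), with Benjamini-Hochberg adjustment over all genes, and was tested on simulated data. The labels call the replicates biological and say no more, so p-values measure the spread between these samples.

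The comparison, the 33 gene lists (789 distinct genes, 686 measured, 8 by an older symbol) and the alternatives were chosen with earlier results of these data known. Genes were named by a rule: the 10 highest and 10 lowest differences among the 100 smallest p (5 and 5 for the contrasts with day 7 and with DEX), indicator genes, up to 4 non-overlapping members of each list (otherwise the 2 of smallest p), and each list's highest and lowest member. RIKEN, predicted and numbered clone symbols were not named, and members outside the rule were named after their values were seen.

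Alternatives were leaving out each array, quantile normalization, array centring, array weights, a trended robust fit, the 6 arrays alone, all probe sets or their median per gene, the upper part of genes by interquartile range, TAA replicate 1 alone and the replicate number as a block. Counts of non-overlapping members without 1 array were added after seeing the data. Same-numbered TAA and BSS arrays of day 30 correlated from -0.166 to 0.155 in their deviations from the group means. Those of the day 7 groups correlated from 0.0389 to 0.427, and those of any 2 groups from -0.228 to 0.465. The labels do not say whether the numbers pair the samples, and these few correlations cannot decide it.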

Additional observations from a re-analysis of the deposited data

Results flagged for a closer look

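In 7 of the 165 named genes all 3 TAA arrays lay on one side of the vehicle arrays at day 30 and all 3 lay on the opposite side at day 7. Many genes were named because their arrays lay wholly apart at day 30: the 7 are 7.53% of the 93 named genes that did, against 110 of all 18194 genes, or 4.51% of the 2437 that lay wholly apart at day 30. Egr1 differed from the vehicle by -1.04 at day 30 and 0.45 at day 7, Zfr by -0.67 and 0.24, Set by -0.65 and 0.24, Scgn by -0.64 and 0.35, Rpl4 by -0.57 and 0.33, Gria2 by -0.4 and 0.28, and Angpt1 by -0.35 and 0.54. The difference between the days was tested for each with limma and did not pass, with adjusted p of 0.484 for Zfr and Scgn, 0.711 for Egr1, Set, Rpl4 and Angpt1, and 0.788 for Gria2. With array weights Zfr and Scgn passed in that test (limma adjusted p = 0.0278 and 0.0247). The weights of TAA replicates 1, 2 and 3 of day 7 were 0.528, 0.261 and 4.15, so that fit leaned on replicate 3 for the TAA value of day 7.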

How the results depend on the processing

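For TAA against BSS at day 30 the count of genes that passed was 0, and it became 1, a RIKEN clone gene higher with TAA, with the replicate block, with the median of a gene's probe sets and with array weights (limma adjusted p = 0.0274, 0.0284 and 0.0238); it stayed at 0 without any 1 array. For the difference between the days the count went from 0 to 17 (5 higher, 12 lower) with array weights, and ranged from 0 to 2 without 1 array: Mt3 and Saa3 passed without TAA day 7 replicate 3. For TAA against DEX at day 30 the count went from 0 to 101 with the replicate block (53 higher, 48 lower) and to 2367 with array weights (1284 higher, 1083 lower), and ranged from 0 to 1253 without 1 array, the highest without DEX day 30 replicate 3; without TAA day 30 replicate 1 Pmp22, Rps6kb2 and Slc7a4 passed. Whether the replicate numbers pair the samples is not known, so the block is given as an alternative only. Of 165 named genes 20 turned sign and 56 shrank to under 0.5 of their value without 1 array, none of them among the 20 named by size. For the genes named by size a turn of sign was not possible, since their arrays do not overlap. Their choice by p and size also favours little shrinkage. Over the settings 2369 values of named genes kept their direction and 69 did not, and 480 list medians stayed within the spread of the arrays and 48 moved. Quantile normalization turned the sign of 8 list medians and array weights that of 6, all with a median within 0.3 of 0. The cause was not tested. TAA replicate 2 of day 30 has an array weight of 0.195 and DEX replicate 3 of day 30 one of 0.273. TAA replicate 3 of day 7 has the highest weight, 4.15. The centred values hold no level, so signal over background is not given, and precision depends on how many arrays a group has.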
